A study of Mus musculus with 24 samples.

Results

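The hours at which the Period transcripts of a cultured hepatocyte clock stood high were set against the hours 12 h away in phase, when they stood low. The PER-high hours were 22, 24, 46 and 48 h after a serum shock, and the PER-low hours were 12, 34, 36 and 58 h, so 8 of the 24 arrays of the series entered the comparison, 4 in each set. Each set had a mean time of 35 h, with 23 h on the first day (22 and 24 h against 12 and 34 h) and 47 h on the second (46 and 48 h against 36 and 58 h), so that a steady linear drift cancels on each day. An abrupt change does not cancel. Mthfd2, for example, was at 8.92 at 42 h and at 11.96 at 44 h. Of 36, 46, 48 and 58 h only 36 h lies before that change. Of 45037 probe sets outside the array's controls, 18333 reached 5 on the log2 scale in 4 or more of the 8, and these stood for 9749 named genes. A further 16 arrays were used beside them: 8 flanking arrays, 2 h on either side (PER-high flanking hours 20, 26, 44 and 50 h, PER-low flanking hours 14, 32, 38 and 56 h), and 8 arrays 6 h away (28, 30, 52 and 54 h, after the PER-high hours, and 16, 18, 40 and 42 h, before them).

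All arrays came from MMH-D3, an immortalized mouse hepatocyte line, held at confluence and differentiated for 14 days with 2% DMSO. A serum shock, a pulse of serum that sets the clocks of cultured cells to a common phase, was followed by 12 h of incubation before the first sample. RNA was measured on single-colour Affymetrix arrays every 2 h from 12 to 58 h, with 1 array per hour, and every group shared the line, the DMSO and the shock. No hour was repeated and the labels do not say whether the samples came from separate cultures, so arrays of neighbouring phases stand as repeats here. The p-values measure the spread between these 8 arrays. That spread may be technical, and it also holds any change with time between the different hours of a set.

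In the mammalian clock, the activators CLOCK and BMAL1 (gene Arntl) bind E-box sequences and switch on the Period and Cryptochrome genes, whose proteins return to the nucleus and repress them. A second loop runs through REV-ERB and ROR, which repress and activate Arntl. In liver this clock passes its time on through transcription factors such as DBP and TEF, which bind D-boxes in the genes of metabolism and detoxification.

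The 8 arrays were alike in overall signal. The median log2 value of the kept probe sets was 9.07 to 9.17 in PER-high arrays and 9.10 to 9.14 in PER-low arrays, the share of values at the table's lowest value 40.8 to 42.1% and 40.9 to 41.9%, and the 3' minus 5' difference of the actin control 0.36 to 0.47 and 0.33 to 0.48 (two-sided exact permutation p = 0.857, 0.514 and 0.6). The poly(A) control transcripts, bacterial RNAs that are normally added before labelling, were at a mean log2 value of 8.70, 9.0, 8.94 and 9.73 at 22, 24, 46 and 48 h and at 9.52, 9.36, 9.84 and 9.63 at 12, 34, 36 and 58 h. All 24 of these control sets had the lower mean in PER-high arrays, although the array means overlapped (two-sided exact permutation p = 0.114, the smallest possible being 0.0286). Of 14 hepatocyte markers 11 were measured, with Alb (albumin) at 15.87 in PER-high and 15.97 in PER-low arrays, whereas the table's lowest value, 2.17, was nearly all that Apoa2, Apoh and F2 showed. Of the bile duct markers 4 of 6 were measured, with Krt19 (a bile duct keratin) at 15.41 and 15.43, and none of 9 fibroblast and 5 endothelial markers. Of 7 macrophage markers 3 were measured, with Cd14 at 14.74 and 14.76 and Ptprc near the lowest value.

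The transcript that stood out between the 2 sets was Per2, which encodes the repressor PERIOD 2. Of 18333 probe sets 2 were higher in PER-high hours by limma with Benjamini-Hochberg adjustment below 0.05 and the same sign on both days (0.0109%), and 0 were lower (0%). Of the kept sets, 2 passed the minimum through PER-high arrays alone and 2 through PER-low arrays alone. The called sets were 1 of Per2 and the set 1425792_a_at, for which the annotation used here gives no gene. At an unadjusted limma p below 0.05 with the same sign on both days, 306 sets were higher (1.67%) and 439 lower (2.39%), and 8318 sets had the same sign on both days whatever their p (45.4%). A second, untested description counted sets whose 4 arrays of one kind all lay beyond the 4 of the other: 98 were higher (0.535%) and 206 lower (1.12%), of which 13 (0.0709%) and 49 (0.267%) also differed by at least 0.5 in log2 mean. Leaving out 1 array moved these last counts to between 19 and 67 and between 50 and 98, the most without the 58 h array. A smaller group overlaps less readily, so some rise is built into leaving an array out.

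**Figure D1:**
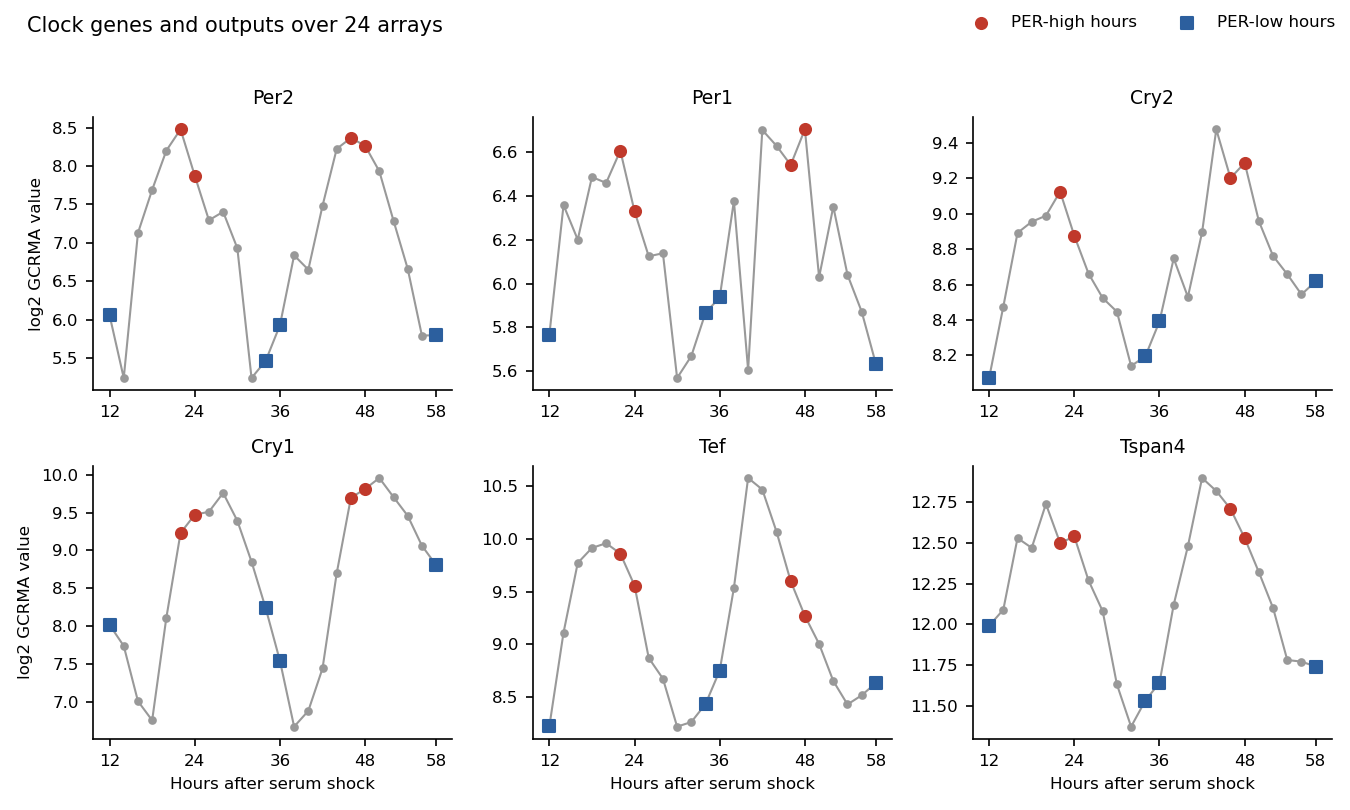
Log2 GCRMA values (vertical axis, a separate scale in each panel) against hours after serum shock (horizontal axis) for 6 genes in all 24 arrays, 1 array per point, with PER-high hours as red circles, PER-low hours as blue squares and the other 16 hours in grey. In each panel the 4 red points lie above the 4 blue points, and the crest and trough of Cry1 come later than those of the other 5 genes.

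Because the hours are named for the Period transcripts, the values of Per1 and Per2 describe the sets and support nothing further. Per2 (probe set 1417602_at) was at 8.48 and 7.88 at 22 and 24 h and at 8.37 and 8.27 at 46 and 48 h, against 6.06, 5.47, 5.93 and 5.80 at 12, 34, 36 and 58 h. The lowest PER-high array, 24 h, lay well above the highest PER-low array, 12 h. The means were 8.25 ± 0.26 and 5.81 ± 0.25 (SD, n = 4 arrays each), a difference of 2.43 ± 0.17 (SE) on the log2 scale, 5.41-fold, with a limma adjusted p of 0.0154. The difference was 2.42 on the first day and 2.45 on the second. This call was lost without any 1 of the arrays at 22, 34, 36, 46, 48 or 58 h, with adjusted p-values up to 0.178, and also with each pair of arrays 12 h apart as a block (adjusted p = 0.235) and with no filter (0.617), while the difference stayed between 2.32 and 2.56. The other Per2 set, 1417603_at, averaged 6.29 in PER-high and 4.36 in PER-low arrays, a difference of 1.94 (adjusted p = 0.0688).

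Per1, the light- and glucocorticoid-inducible Period gene, had a smaller difference. It was at 6.61, 6.33, 6.54 and 6.70 at 22, 24, 46 and 48 h and at 5.77, 5.87, 5.94 and 5.63 at 12, 34, 36 and 58 h. The 2 groups of arrays did not overlap, and the difference of 0.74 ± 0.12 did not pass (limma adjusted p = 0.351). The set 1425792_a_at read 6.57, 6.62, 6.74 and 7.41 in the PER-high arrays, against 4.53, 4.99, 4.90 and 4.93 in the PER-low arrays, a difference of 2.00 ± 0.18 (limma adjusted p = 0.0471). This call was lost without any 1 of the 8 arrays, with the pair block, with no day term, with linear time, with no filter, with at least 6 in 4 arrays and with quantile normalization, and the adjusted p ran from 0.00814 to 0.668 over the alternatives. Its PER-low mean of 4.84 lies under the minimum of 5, so the 4 PER-high arrays alone carried it past the filter. It was 1.53 higher in the PER-high flanking hours.

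Both Cryptochrome genes, whose proteins partner PERIOD in the repressor complex, were above their PER-low values in every PER-high array. Cry2 was at 9.12, 8.88, 9.20 and 9.29 at 22, 24, 46 and 48 h, and at 8.07, 8.20, 8.39 and 8.62 at 12, 34, 36 and 58 h. The difference was 0.80 ± 0.09, or 0.87 on the first day and 0.74 on the second (limma adjusted p = 0.105). Cry1 was at 9.23, 9.47, 9.70 and 9.81 in PER-high hours and at 8.02, 8.24, 7.54 and 8.81 in PER-low hours, and its difference of 1.40 ± 0.25 did not pass either (limma adjusted p = 0.491). The PER-low values of Cry1 spread over more than 1 log2 unit, with 36 h the lowest and 58 h the highest.

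The arrays 6 h away separated Cry1 from the other repressors. Cry1 was 2.49 ± 0.19 higher in the hours after the PER-high hours than in the hours before them (limma with a linear time term, adjusted p = 0.00402), whereas the after minus before difference was -0.04 for Per2, -0.23 for Cry2 and -0.27 for Per1, none of which passed. In that contrast 3 probe sets passed as higher (0.0164%) and 3 as lower (0.0164%). The 3 higher sets were those of Cry1, Arntl and Ivl, the cornified envelope protein involucrin, at 1.25. The 3 lower ones were both sets of Dbp and 1 of Tef. Ivl was found by this contrast and lies outside the rule for named genes. A linear time term does not take up an abrupt change, such as that of Mthfd2 between 42 and 44 h. In this contrast 40 and 42 h lie before that change and 52 and 54 h after it.

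The members of the opposing loop had smaller differences between PER-high and PER-low hours than between after and before, and the gap between the 2 contrasts was not tested. Arntl, the partner of CLOCK, was at 7.40, 7.91, 8.59 and 8.75 at 22, 24, 46 and 48 h and at 8.58, 8.44, 8.40 and 9.31 at 12, 34, 36 and 58 h. The 2 groups overlapped (difference -0.52 ± 0.23, limma adjusted p = 0.977), while Arntl was 1.87 ± 0.20 higher after the PER-high hours than before (adjusted p = 0.0386). Nr1d1, which encodes REV-ERB alpha, had a difference of -0.77 between PER-high and PER-low hours and -2.91 between after and before. For Nr1d2 (REV-ERB beta) the same differences were 0.24 and -1.87, and none of these 4 passed (limma adjusted p of 0.273 or more). Clock itself differed by -0.12, the ROR gene Rora by 0.04, the repressor Bhlhe40 by 0.20, the kinase genes Csnk1d and Csnk1e, whose products phosphorylate PERIOD, by -0.05 and 0.04, and Nfil3, a repressor at D-boxes, by 0.42. Other probe sets of Rora and Csnk1e had the opposite sign. Of 17 core clock genes on the array 13 were measured. Of these 11 had the same sign on both days (45.4% of all sets), and 4 had groups of arrays that did not overlap, all higher (0.535%): Per1, Per2, Cry1 and Cry2. The hours are named for Per1 and Per2, so their place in both counts supports nothing further. Of the 4, only Cry1 and Cry2 lie outside that choice.

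**Figure D2:**
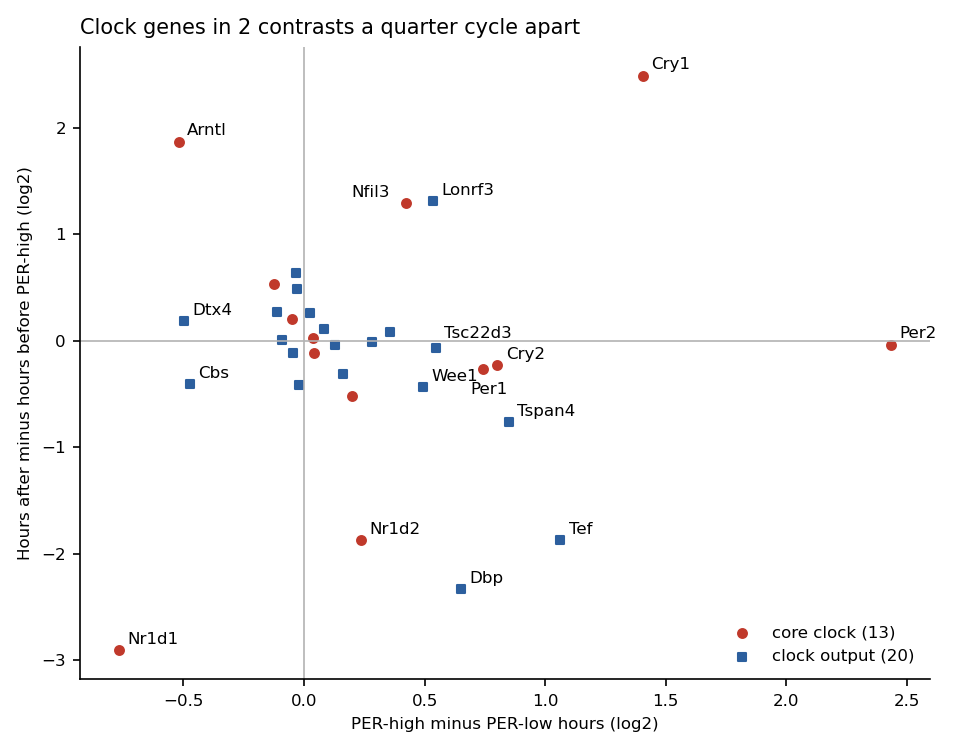
Difference between PER-high and PER-low hours (horizontal axis, log2) against the difference between the hours after and the hours before PER-high (vertical axis, log2) for the 13 measured core clock genes (red circles) and 20 clock output genes (blue squares), 1 point per gene. Per2 lies far right at -0.04 on the vertical axis, while Cry1 and Arntl lie at the top (2.49 and 1.87) and Nr1d1, Dbp, Tef and Nr1d2 at the bottom (-2.91 to -1.87).

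Of the clock output genes, 20 of 25 on the array were measured, 11 had the same sign on both days (55%, against 45.2% of all genes), and 2 had groups that did not overlap (0.535% and 1.12% of all sets, higher and lower), both higher. Tef, a PAR bZIP factor, was at 9.86, 9.56, 9.60 and 9.27 at 22, 24, 46 and 48 h and at 8.22, 8.43, 8.75 and 8.63 at 12, 34, 36 and 58 h. Its difference was 1.06 ± 0.16 (limma adjusted p = 0.27), 1.38 on the first day and 0.74 on the second, and its other set gave 1.28. Its after minus before difference was -1.88 ± 0.18 (adjusted p = 0.024). Tspan4, a tetraspanin of the cell surface, was at 12.50, 12.54, 12.71 and 12.53 in PER-high hours and at 11.99, 11.53, 11.64 and 11.74 in PER-low hours, a difference of 0.85 ± 0.11 (limma adjusted p = 0.133) that passed without the 12 h array (adjusted p = 0.0239, from 0.0239 to 0.969 over the alternatives).

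Dbp, the PAR bZIP factor with the best known daily rhythm in liver, overlapped between the 2 groups. It was at 11.76, 10.85, 10.78 and 10.29 at 22, 24, 46 and 48 h, and at 11.23, 9.84, 10.36 and 9.66 at 12, 34, 36 and 58 h (difference 0.65 ± 0.34, limma adjusted p = 0.977). Its after minus before difference was -2.33 ± 0.13 (adjusted p = 0.00094). Tsc22d3, a glucocorticoid-induced leucine zipper, differed by 0.55 ± 0.13 and Wee1, a kinase that restrains entry into mitosis, by 0.49 ± 0.15. In each a single PER-low array (58 h for Tsc22d3, 36 h for Wee1) lay above the lowest PER-high array, and neither passed. Lonrf3 (0.53) and Klf9 (0.36) also had positive differences, as did Hdac4 (0.28) and Nampt (0.16), which did not keep their sign on both days, while Dtx4 (-0.50) and Cbs (-0.47) had negative ones, and the remaining 9 lay between -0.11 and 0.13.

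Promoter sequence was taken from RefSeq (GRCm38.p6), 250 bases before to 50 after each annotated start. Those of 5 genes are shown, chosen after their values were seen because their groups of arrays did not overlap and their window holds a clock element. Capitals mark the E-box CACGTG, the E'-box CACGTT, the D-box TTATGNAA and the ROR element core AGGTCA, each searched on both strands.
Per1, chr11:69098699-69098998, plus strand: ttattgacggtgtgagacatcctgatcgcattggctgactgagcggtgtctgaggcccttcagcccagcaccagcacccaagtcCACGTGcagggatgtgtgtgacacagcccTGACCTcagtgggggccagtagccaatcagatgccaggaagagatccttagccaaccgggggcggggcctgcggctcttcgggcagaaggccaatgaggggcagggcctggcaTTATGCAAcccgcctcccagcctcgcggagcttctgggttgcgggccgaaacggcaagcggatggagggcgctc
Cry1, chr10:85185005-85185304, minus strand: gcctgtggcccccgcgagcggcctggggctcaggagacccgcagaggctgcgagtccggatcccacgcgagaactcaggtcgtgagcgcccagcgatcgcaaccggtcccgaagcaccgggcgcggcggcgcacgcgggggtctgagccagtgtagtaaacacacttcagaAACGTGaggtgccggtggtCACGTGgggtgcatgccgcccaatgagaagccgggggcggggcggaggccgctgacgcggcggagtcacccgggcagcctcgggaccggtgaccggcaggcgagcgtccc
Cry2, chr2:92434020-92434319, minus strand: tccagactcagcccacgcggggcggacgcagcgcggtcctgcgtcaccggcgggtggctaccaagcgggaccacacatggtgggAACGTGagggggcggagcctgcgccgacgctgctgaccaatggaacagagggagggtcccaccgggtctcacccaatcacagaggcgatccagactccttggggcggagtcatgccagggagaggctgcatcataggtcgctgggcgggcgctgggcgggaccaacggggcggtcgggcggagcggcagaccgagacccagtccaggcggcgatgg
Tef, chr15:81802423-81802722, plus strand: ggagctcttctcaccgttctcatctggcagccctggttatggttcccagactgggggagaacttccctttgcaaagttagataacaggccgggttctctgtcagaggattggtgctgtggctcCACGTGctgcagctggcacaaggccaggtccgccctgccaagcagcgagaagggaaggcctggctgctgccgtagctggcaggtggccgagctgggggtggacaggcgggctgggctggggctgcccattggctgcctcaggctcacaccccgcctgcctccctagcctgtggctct
Tspan4, chr7:141476130-141476429, plus strand: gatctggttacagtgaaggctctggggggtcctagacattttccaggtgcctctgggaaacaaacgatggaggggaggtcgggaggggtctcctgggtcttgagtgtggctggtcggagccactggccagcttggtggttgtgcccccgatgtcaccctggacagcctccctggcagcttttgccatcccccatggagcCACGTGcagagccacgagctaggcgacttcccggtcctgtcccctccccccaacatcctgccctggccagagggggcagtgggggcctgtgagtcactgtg

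The Per1 window shown holds an E-box 166 bases upstream of the start, an AGGTCA on the other strand at 137 and a D-box at 24. A second Per1 window and the window of Dbp hold none of these elements, and Per2 had no window in the sequences used. Cry1, the gene that came later than the rest, holds an E'-box at 79 and an E-box at 60 bases upstream, and Cry2 an E'-box at 166. The Tef E-box lies 127 bases upstream, and a second Tef window holds another at 138. That of Tspan4 lies 51 bases upstream in the second of its 2 windows. Among the 41 genes whose groups did not overlap with PER-high above, 37 had a window and 12 of these held an E-box (32.4%). The share was 9 of 91 (9.89%) among genes with PER-low above, and 988 of 7995 (12.4%) among all genes measured. Besides Cry1, Tef, Tspan4 and Per1 the 12 were Ankrd12, Cdk6, Gid4, Telo2, Pdpr, Macrod1, Nsf and Atp1b3, with differences of 0.36 down to 0.14, named after their values were seen. Per1 counts among the 12 although the hours are named for it. For the E'-box the shares were 10.8%, 8.79% and 6.54%, for the D-box 2.7%, 3.3% and 2.54%, and for AGGTCA 10.8%, 11% and 14.4%, in the same order. A match is a run of letters in the window and not evidence of binding.

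Outside the clock, the genes with PER-high above and the smallest p-values included 3 of nucleotide and folate metabolism, none of which passed. Cad, the first enzyme complex of pyrimidine synthesis, was at 8.16, 7.92, 8.39 and 8.33 in PER-high hours and at 7.54, 7.60, 7.37 and 7.80 in PER-low hours (difference 0.62 ± 0.13, limma adjusted p = 0.713). Mthfd1l, a mitochondrial enzyme that makes formate for purine synthesis, was at 9.88, 9.62, 9.90 and 9.91, against 8.16, 9.01, 8.88 and 9.41 (difference 0.96 ± 0.21, adjusted p = 0.765), with 12 h the lowest of the 8 arrays. Pfas, an enzyme of purine synthesis, differed by 0.36 ± 0.09 (adjusted p = 0.942). Rdh10, which makes retinal from retinol, was at 11.90 to 12.18 in PER-high and 11.58 to 11.80 in PER-low arrays (0.38 ± 0.08, adjusted p = 0.744). In the flanking hours, which this choice did not use, the 4 genes were higher by 0.30, 0.72, 0.36 and 0.19.

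Of genes with PER-low above, none passed, and the smallest p belonged to a noncoding RNA. Gt(ROSA)26Sor, transcribed from the Rosa26 locus, was at 9.94, 9.71, 9.49 and 9.43 at 22, 24, 46 and 48 h and at 10.53, 10.76, 10.30 and 10.52 at 12, 34, 36 and 58 h. The difference was -0.89 ± 0.09 (limma adjusted p = 0.0688), -0.82 on the first day and -0.95 on the second. Tmeff2, a transmembrane protein with follistatin-like domains, was at 8.23 to 8.75 against 9.17 to 9.50 (-0.77 ± 0.12, adjusted p = 0.27). Agt, the liver's angiotensinogen, was at 9.02, 9.02, 9.12 and 9.04 in PER-high hours and at 9.40, 9.53, 9.50 and 9.50 in PER-low hours (-0.43 ± 0.07, adjusted p = 0.27). The spread of Agt within each set was narrow, 0.05 and 0.06 (SD, n = 4 arrays each), but naming genes by smallest p favours a small spread. In the flanking hours, which took no part in the naming, its groups overlapped. Agt was at 9.09, 8.75, 9.25 and 8.87 at 20, 26, 44 and 50 h. At 14, 32, 38 and 56 h it was at 9.03, 9.54, 9.42 and 9.47.

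The other 7 genes filled in by p were Ccnl2 (-0.45), a cyclin of splicing complexes, Olr1 (-0.61), a receptor for oxidized LDL, Egr3 (-0.46), a serum-induced transcription factor, Qpct (-0.43), which forms N-terminal pyroglutamate, Firre (-0.71), a nuclear noncoding RNA, Pisd-ps3 (-0.40) and Grb14 (-0.39), an adaptor that dampens insulin receptor signalling. Their limma adjusted p-values were 0.495 or more. In the flanking hours Agt differed by -0.37, Gt(ROSA)26Sor by -0.54 and Tmeff2 by -0.25, and Grb14 by 0.10, with the opposite sign.

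**Figure D3:**
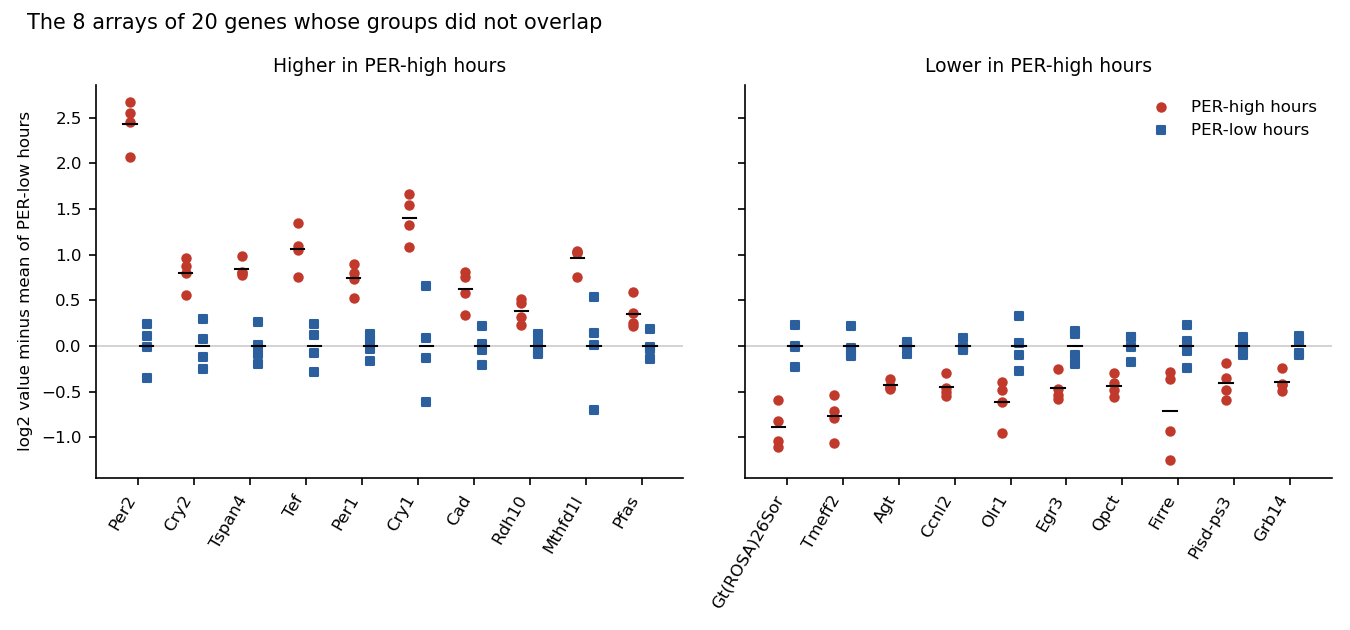
Log2 value minus the gene's mean over the 4 PER-low hours (vertical axis) for 10 genes with PER-high above (left panel) and 10 with PER-low above (right panel), each gene with its 4 PER-high arrays (red circles) left of its 4 PER-low arrays (blue squares) and black bars at the means. Per2 has the widest gap (2.43), and the 4 PER-high points of Agt lie closest together.

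The arrays at the flanking hours, which took no part in choosing the sets, repeated most of these directions at a smaller size. All 13 sets with PER-high above by at least 0.5 were higher in the PER-high flanking hours (53.3% of all 18333 sets were), with a median of 0.65 in place of 0.96. The 13 include sets of Per1 and Per2, for which the hours are named. Of the 49 sets with PER-low above, 47 were lower (46.7% of all sets were), with a median of -0.41 in place of -0.83. The flanking groups did not overlap, in the same direction, for 5 of the 13 (1.01% of all sets) and 2 of the 49 (0.551%). Some of these sets read the same gene and all share the same 8 flanking arrays, so they are not separate repeats. No set passed in the flanking contrast (0%), where the smallest limma adjusted p was 0.998. There 536 sets (2.92%) had an unadjusted p below 0.05, and 185 (1.01%) and 101 (0.551%) did not overlap as higher and as lower. Per2 was 2.14 higher there, Cry1 0.99, Tspan4 0.70, Tef 0.62, Cry2 0.54 and Per1 0.24. Per1 had a ragged course in these arrays, with 6.03 at 50 h among the PER-high flanking hours and 6.36 at 14 h among the PER-low ones.

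**Figure D4:**
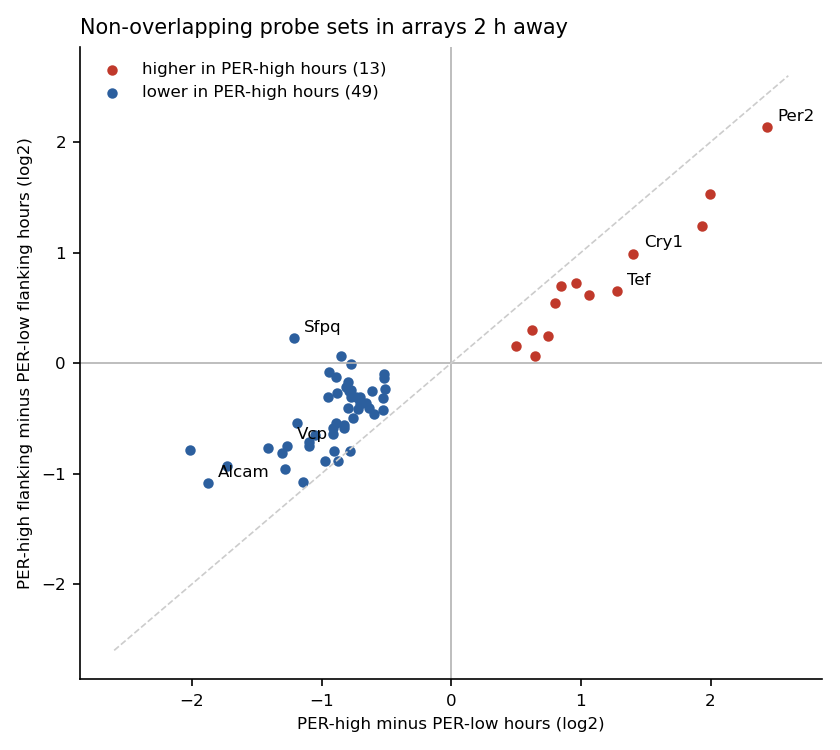
Difference between PER-high and PER-low hours (horizontal axis, log2) against the same difference between the flanking hours (vertical axis, log2) for the 13 sets with PER-high above (red) and the 49 with PER-low above (blue) by at least 0.5, 1 point per probe set, with equality dashed. All 13 red points lie above 0 on the vertical axis and 47 of 49 blue points below it, a set of Sfpq at 0.22 being 1 of the 2 exceptions.

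The make-up of the 49 sets with PER-low above was looked at after their values were seen. Of these 10 were the representative set of a gene (20.4%, against 53.2% of all kept sets), 17 had no single gene in the annotation (34.7% against 7.3%), and 22 were second sets, dimmer than the representative one, of 19 genes (44.9% against 39.5%). Of the 13 sets with PER-high above, 8 were representative, 1 had no single gene and 4 were second sets. For 19 of the 22 the gene's representative set differed by less than 0.2. The 19 genes had 21 further second sets, of which 17 differed by less than 0.2 (median -0.08, from -1.05 to 0.12). Of the 5 measured sets of Alcam, a cell adhesion molecule, 1 was among the 49. This set, 1443086_at, read 3.72, 4.54, 5.16 and 4.64 at 22, 24, 46 and 48 h and 6.98, 5.71, 6.57 and 6.33 at 12, 34, 36 and 58 h, a difference of -1.88 ± 0.33. Its PER-high mean of 4.52 lies under the minimum of 5. The representative set of Alcam was at 12.93, 13.09, 13.09 and 13.34, against 12.89, 13.39, 13.16 and 13.15, a difference of -0.04, and the other 3 sets differed by -0.06, -0.09 and -0.08.

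Vcp, an ATPase that extracts proteins for degradation, gave 4.51, 5.05, 5.56 and 5.64 in PER-high hours and 6.78, 5.99, 6.74 and 6.31 in PER-low hours in its second set (-1.27), against 0.00 in the representative one. Rbm39, a splicing factor, had 7 measured sets. Of these 4 differed by -0.81, -1.05, -1.41 and -0.87, and the other 3, the representative one included, by 0.04, 0.04 and -0.02. The 49 also held 1 second set each of the splicing proteins Tra2a (-1.10), Sfpq (-1.21), Thrap3 (-0.91) and Rbmx (-0.79), of the chaperone Hspa8 (-0.77) and of the transcription regulator Id2 (-0.95), while their representative sets differed by -0.03, 0.07, 0.08, -0.09, 0.16 and -0.09. The remaining second sets differed by -0.11 for Tra2a, by 0.02, 0.03 and 0.12 for Sfpq, by 0.09 for Thrap3, by -0.02 and -0.01 for Hspa8 and by -0.15 for Id2. None of these passed in the fit. Which part of a transcript each set reads is not given in the sources used here, so mature and unspliced RNA cannot be told apart.

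Some noncoding RNAs were looked at after their values were seen, with no list fixed for them and no test. Malat1, a noncoding RNA of nuclear speckles, had 7 measured sets, all lower in PER-high hours (-0.54 to -0.90) and all lower in the flanking hours. Its representative set was at 13.30, 13.70, 13.02 and 12.85 at 22, 24, 46 and 48 h and at 15.05, 13.69, 13.89 and 13.06 at 12, 34, 36 and 58 h, so the groups overlapped and 12 h stood highest. Neat1, the RNA scaffold of paraspeckles, differed by -1.09 on the first day and by 0.09 on the second, so it did not keep its sign. The 2 sets of Particl differed by -0.57 and -0.41, and none of these RNAs passed.

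The poly(A) controls were also lower in PER-high arrays (-0.50 on average), and their part in the lower sets was not tested. The hybridization controls, 18 sets, were likewise all lower in PER-high arrays, at 11.09 on average against 11.22 (-0.13, two-sided exact permutation p = 0.6). In the flanking hours the poly(A) controls averaged 9.74 against 9.61, the other way, and the hybridization controls 11.45 against 11.56, the same way, and their part was not tested either. The mean of the 49 sets was lowest at 26, 22, 24 and 48 h (6.01 to 6.33) and highest at 12, 36 and 54 h (7.27 to 7.47). Its course at PER-high and PER-low hours is built in, because those hours chose the 49. At the PER-high flanking hours 20, 26, 44 and 50 h it was 6.65, 6.01, 7.05 and 6.38. At the PER-low flanking hours 14, 32, 38 and 56 h it was 7.20, 6.86, 6.98 and 6.94, so the groups overlapped.

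**Figure D5:**
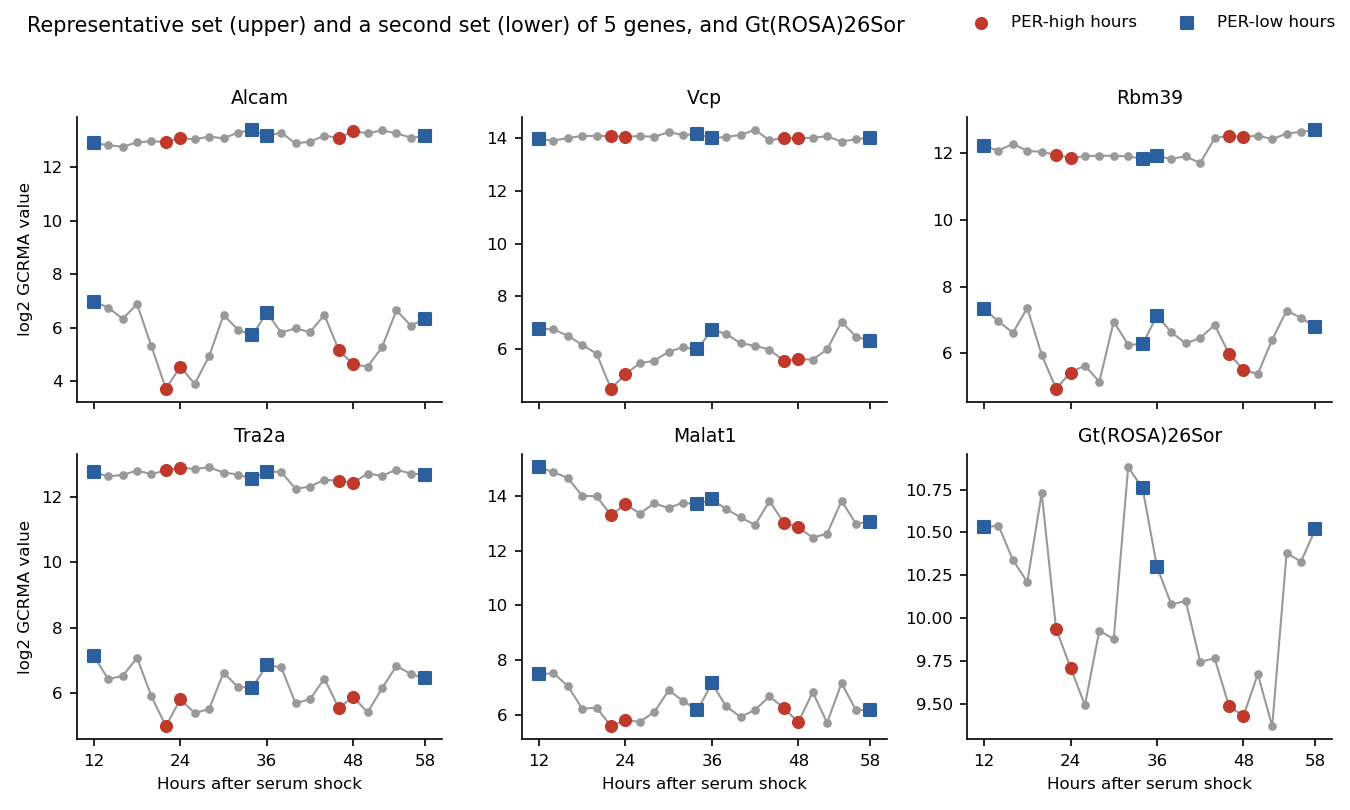
Log2 GCRMA values (vertical axis) against hours after serum shock (horizontal axis) in 24 arrays for Alcam, Vcp, Rbm39, Tra2a and Malat1, each with its representative probe set (upper line) and its second set of most negative difference (lower line), and for the single set of Gt(ROSA)26Sor. PER-high hours are red circles, PER-low hours blue squares and the other hours grey. The lower lines were picked by that difference, so low red points are built in. All red points lie below all blue points in the lower lines of Alcam, Vcp, Rbm39 and Tra2a. In that of Malat1 the groups overlap, with 6.24 at 46 h and 6.16 at 34 and 58 h. The upper lines of Alcam, Vcp and Tra2a stay within 1 log2 unit at the marked hours.

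Gene groups outside the clock held no gene that passed, and most did not keep their direction from day to day. Of all 9749 genes, 4410 had the same sign on both days (45.2%), 1988 higher and 2422 lower, with a median difference of -0.01. The amino acid response genes, targets of ATF4 that make and import amino acids, were the most one-sided of the lists outside the clock: 18 of 21 had the same sign, all 18 higher, with a median of 0.68, and none reached an unadjusted p of 0.05. The median difference was 0.14 on the first day and 1.30 on the second. By pair, the median was -0.11 for 24 minus 12 h, 0.54 for 22 minus 34 h, 2.40 for 48 minus 36 h and 0.24 for 46 minus 58 h, so the pair holding the 36 h array gave most of the second day's value.

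The median level of the amino acid response list was 10.65, 10.20, 12.22 and 12.14 at 22, 24, 46 and 48 h and 10.43, 10.35, 10.42 and 11.95 at 12, 34, 36 and 58 h. The 3 arrays from 46 h on stand together, whichever set they belong to. Mthfd2, a mitochondrial folate enzyme, had the smallest p of the list: 9.56, 9.47, 12.22 and 12.29 in PER-high hours and 8.98, 8.77, 8.91 and 11.74 in PER-low hours (1.28 ± 0.56, limma adjusted p = 0.977). The ribosome biogenesis genes had the same form, with 17 of 23 higher on both days, a median of 0.24, and pair medians of -0.15, 0.26, 0.57 and 0.16 in the same order. Ncl, the nucleolar protein nucleolin, differed by 0.37 ± 0.14.

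The cell cycle lists had opposite signs on the 2 days. All 22 measured mitosis genes were higher in PER-high hours on the first day (median 1.40) and all 22 lower on the second (median -0.96), so 0 of 22 had the same sign. The first day's value came from the 12 h array: the list's median level was 9.14, 9.77, 8.73 and 7.93 at 22, 24, 46 and 48 h and 5.67, 9.90, 10.27 and 8.82 at 12, 34, 36 and 58 h. The pair of 24 minus 12 h gave 3.74 and that of 22 minus 34 h gave -0.95. Of 23 DNA replication genes 0 had the same sign (medians 0.68 and -0.31), and of 20 cholesterol synthesis genes 1 had (0.25 and -0.45), Pmvk. These lists are therefore not described by the contrast of the 2 sets.

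Oxidative phosphorylation genes had the same sign in 15 of 23 cases, all lower (median -0.05), and proteasome genes in 14 of 24, with 12 lower (median -0.05). Acute phase and complement genes had 7 of 15 lower and 4 higher, and fatty acid oxidation genes 4 of 12 lower and 1 higher, a same-sign share of 41.7% where all genes had 45.2%. NRF2 and redox genes had 8 of 15 lower and 3 higher, with Gstm1, a glutathione transferase, at 12.50, 12.49, 12.07 and 11.99 in PER-high hours and 12.93, 12.76, 12.63 and 12.31 in PER-low hours (-0.39 ± 0.08, limma adjusted p = 0.713). Acadvl, the very long chain acyl-CoA dehydrogenase, was at 10.54 to 10.81 against 10.81 to 10.99 (-0.21 ± 0.05, adjusted p = 0.942). Crp, the acute phase protein, differed by -0.40, Ndufa9, a subunit of complex I, by -0.13 and Psmb1, a proteasome subunit, by -0.12.

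The remaining lists were mixed, with medians between -0.12 and 0.12. The glucocorticoid-responsive genes had 6 of 15 higher and 3 lower, the serum response genes 1 of 23 higher and 7 lower, the fatty acid and triglyceride genes 6 of 17 higher and 1 lower, and the endoplasmic reticulum stress genes 4 of 20 higher and 8 lower. The heat shock proteins had 3 of 17 higher and 2 lower, hypoxia genes 4 of 17 each way, glucose metabolism genes 2 of 15 higher and 1 lower, polyamine genes 4 of 9 higher and 2 lower, xenobiotic genes 2 of 12 higher and 3 lower. G1 cyclins and inhibitors had 5 of 18 higher and 4 lower, ribosomal proteins 6 of 17 higher and 0 lower, cold-inducible RNA-binding genes 0 of 7 higher and 2 lower, and the 3 measured bile acid and sterol transport genes had no common sign. Cdk6, a kinase of G1, was at 11.45 to 11.74 in PER-high and 11.16 to 11.42 in PER-low arrays (0.35 ± 0.09), and Hk2 (hexokinase 2), Elovl5 (a fatty acid elongase) and Odc1 (the first enzyme of polyamine synthesis) differed by 0.28, 0.14 and 0.32.

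The size of the contrast was compared between days by the interaction of set and day. No probe set passed (0%): the smallest limma adjusted p was 0.779, and 1025 of 18333 sets had an unadjusted p below 0.05. In the 5 genes of smallest p the PER-high arrays of the 2 days lay apart, while the PER-low arrays spread little. Picking genes by smallest p favours days that lie apart and a small spread within them. Runx1, a transcription factor, was at 5.85, 6.01, 7.27 and 7.07 at 22, 24, 46 and 48 h and at 6.04, 6.10, 6.05 and 6.20 at 12, 34, 36 and 58 h. Eif2a, an initiation factor, was at 10.39, 10.24, 9.44 and 9.37 against 9.72, 9.81, 9.98 and 9.81, and Cmtm6, Tmem41b and Sbk1 had the same form.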

How the data were processed

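Total RNA of 24 samples was amplified, labelled with biotin and hybridized to single-colour Affymetrix mouse arrays, per the labels' protocols. The authors deposited GCRMA values on a log2 scale for each probe set, per the submitters' processing notes. GCRMA models background from probe base content, then normalizes and summarizes across arrays. Its version and settings are not given in the sources used here, and the log2 scale was read from the range of values. The floor, 2.17, makes up 41.2% of the table, so a set at it has only an upper bound. Array number limits the precision.

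Of 45101 probe sets 64 controls were left out. GEO's platform annotation gave 1 gene symbol to 34945 of the rest, several to 932 and none to 9160, and 34741 matched RefSeq. A gene is represented by its kept set of highest mean over the 8 arrays. limma 3.58.1 in R 4.3.3 (lmFit, eBayes with an intensity trend) was fitted with terms for set and day, adjusted by Benjamini-Hochberg over 18333 sets. The flanking contrast used the same model, the contrast 6 h away a linear time term. Array measures had two-sided exact permutation tests. The fits were tested on simulated data. Named genes were the measured clock and clock output genes, genes called or filled to 10 each way by smallest p among non-overlapping ones, the gene of smallest p with 1 sign in each other list, and 5 by day difference. The members and lists were chosen with earlier results of these data known. The alternatives changed the terms, the filter, the scaling, the probe set and the arrays left out.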

Additional observations from a re-analysis of the deposited data

Results flagged for a closer look

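In 12 of 140 groups of 4 arrays of the named genes, 1 array stood apart, its gap to the nearest of the others taking up more of the group's range than Dixon's critical value. Chance alone gives such a gap in about 1 of 20 groups. In PER-low arrays the array at 58 h stood apart for 7 genes: Clock (0.85 of the range, at 10.80 against 10.50 to 10.54), Nfil3 (0.925, at 9.03 against 7.60 to 7.70), Klf9 (0.85), Marveld1 (0.882), Pmvk (0.839), Mthfd2 (0.931, at 11.74 against 8.77 to 8.98) and Ncl (0.868). Among PER-low hours only 58 h lies after 36 h. At 46 to 56 h Clock was at 10.65 to 10.90, Nfil3 at 8.95 to 9.29 and Mthfd2 at 11.77 to 12.29. Klf9 was then at 10.61 to 10.93 (58 h: 10.68) and Ncl at 14.41 to 14.69 (58 h: 14.42). Pmvk spread from 7.54 to 8.27 (58 h: 7.59) and Marveld1 from 9.31 to 9.75 (58 h: 9.75). The 12 h array stood apart for Cbs (0.882, at 4.54 against 6.16 to 6.38). In PER-high arrays the 24 h array stood apart for Nr1d2 (0.853, at 10.69 against 11.54 to 11.69), Mthfd1l (0.918) and Cdk6 (0.837), and the 46 h array for Tspan4 (0.843, at 12.71 against 12.50 to 12.54).

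In 7 named genes both pairs of arrays lay one way on the first day and the other way on the second. Runx1, Cmtm6, Tmem41b, Sbk1 and Eif2a were named for their day difference, so their place here is largely built in. Only Csnk1e and Fmo2 were named for another reason. The difference on the second day minus that on the first was 1.19 for Runx1, 0.229 for Csnk1e, -0.401 for Fmo2, -0.774 for Cmtm6, -0.872 for Tmem41b, -0.938 for Sbk1 and -1.05 for Eif2a. The interaction of set and day, the test of that difference, did not pass for any of them (limma, smallest adjusted p over all sets 0.779).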

How the results depend on the processing

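The count of sets that passed as higher, 2, became 1 with no day term, with linear time beside day, with at least 5 in all 8 arrays, with at least 6 in 4 arrays and with quantile normalization, 0 with each antiphase pair as a block or with no filter, and 4 with all 24 arrays in the fit (both Per2 sets, 1425792_a_at and Mthfd1l). The lower count, 0, became 2 there (Mospd2 and Tmeff2). With 1 array left out the higher count lay between 0 and 2 and the lower stayed 0. The sets that did not overlap, 13 higher and 49 lower, numbered 98 and 206 with no minimum difference and 6 and 13 with at least 1. With 1 array left out they were 19 to 67 and 50 to 98, and leaving out 12, 22, 24, 34, 46, 48 or 58 h moved the higher count and 12, 34, 46 or 58 h the lower by over 1.5 times. Some of that rise is built in, because a smaller group overlaps less readily. The contrast 6 h away passed 3 to 6 sets with 1 array left out, 3 without 18, 30, 40 or 52 h. Flanking and day differences stayed at 0.

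Under the 5 fit settings that left 1 higher set it was that of Per2, and 1425792_a_at lost its call, or failed the filter of at least 5 in all 8 arrays. The labels give no shared replicate numbers, so the block paired arrays 12 h apart, and with it Per2 lost its call (adjusted p = 0.235), as with no filter (0.617), at the same 2.43. Of 698 values of named genes under the fit settings 694 kept direction and side of the threshold. Only Per2 among the named genes passed in the main fit, so the others could change side only by gaining a call. With 1 array left out 528 of 560 values kept both and 25 reversed direction. Of 66 values from other probe sets 54 kept both and 11 reversed. Other probe sets had the opposite sign for Rora (-0.0442 and -0.0365), Csnk1e (-0.19), Lpin1 (-0.0197), Ypel2 (0.0312 and 0.18), Marveld1 (0.0121), Rps9 (-0.55 and -0.0143), Eif2a (-0.20) and Tmem41b (0.0114), and with 1 array left out the ranges of Rora (-0.0052 to 0.086), Csnk1e (-0.0128 to 0.064), Leo1 (-0.094 to 0.0197), Lpin1 (-0.14 to 0.17), Ypel2 (-0.13 to 0.046), Tfrc (-0.16 to 0.20), Klf10 (-0.0343 to 0.16), Marveld1 (-0.076 to 0.064), Eif2a (-0.11 to 0.17) and Tmem41b (-0.175 to 0.0688) crossed 0. The cause was not tested.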
